A study of Mus musculus with 16 samples.

Results

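The first days after doxycycline were followed in 2 immortalized mouse embryonic fibroblast lines, exp and ctl, by comparing days 5 and 9 with day 0. The exp line is R26M2rtTA/+;TetOcre;Sdhcfl/fl and the ctl line is R26M2rtTA/+;TetOcre;Sdhcfl/wt. Both therefore carry the M2rtTA transactivator at the Rosa26 locus and a Cre recombinase behind a Tet operator. Doxycycline lets the transactivator switch Cre on, and Cre can remove both copies of Sdhc in exp and 1 copy in ctl. Libraries were chosen by line and day alone: day 5 and day 9 of exp and ctl form 4 later libraries, and day 0 of exp and ctl forms 2 earlier ones, 6 of the 16 libraries in all. Cells grew in low-glucose DMEM with 10% FBS at 37 °C in 5% CO2, received doxycycline at 1 µg/mL, and were harvested with trypsin before total RNA was made into TruSeq v2 mRNA libraries. There is 1 line per genotype and 1 library per line and day, and no culture kept for the same days without doxycycline is among these libraries. Doxycycline, Cre activity, loss of Sdhc and time in culture thus cannot be told apart by the change within a line, and genotype cannot be told apart from line by the difference between lines. The labels do not say whether day 0 was sampled before or just after doxycycline was added. All p-values rest on the spread among these 6 libraries, which may be partly technical. For a change within a line, or its difference between lines, that spread is between day 5 and day 9 alone, since the single day 0 library of a line has none of its own.

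Sdhc encodes a membrane anchor of succinate dehydrogenase, the enzyme that oxidizes succinate in the citric acid cycle and passes the electrons to ubiquinone in the respiratory chain. Fibroblasts answer serum, growth factors, stress and handling by a fast and brief transcription of immediate-early genes. These encode transcription factors such as FOS, JUN and EGR1, and are followed by genes for phosphatases and RNA-binding proteins that shut the same signal down. Serum response factor at CArG boxes and CREB at cyclic AMP response elements are well-known routes to these genes.

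The 6 libraries held 18121520 to 32035198 reads in genes, and 12583 genes had a mean of at least 1 FPKM (fragments per kilobase of gene, scaled to library size) over them. The lines expressed fibroblast markers: 10 of the 12 fibroblast genes averaged at least 1 FPKM, and their sum was 4121 to 5355 FPKM at days 5 and 9, against 4269 to 4632 FPKM at day 0. Of the 10 endothelial markers none averaged 1 FPKM. Of the 12 blood and macrophage markers 2 did, while 5 were listed at 0 in all 6 libraries. So did 4 of 10 adipocyte, 4 of 10 neural and glial, 3 of 10 cartilage and bone and 1 of 10 skeletal muscle markers. The neural and glial markers summed to 58.2 to 95.1 FPKM at days 5 and 9, against 57.5 to 105 FPKM at day 0. Mesothelial and epithelial markers were present, most of them in exp only, so that the lines differed in them. Over the 6 libraries 11 of 12 averaged at least 1 FPKM, mostly through exp. Their sum was 342 and 170 FPKM at days 5 and 9 of exp, against 342 FPKM at day 0, and 99.5 and 115 FPKM in ctl, against 101 FPKM, so that it was lower at day 9 of exp. Upk3b, a uroplakin of mesothelium, had 103 and 50.3 FPKM in exp, against 84.8 FPKM, and was under 1 FPKM in every ctl library. So were Upk1b, Wt1, Krt8, Krt18, Krt7, Lrrn4 and Gpm6a. The ctl sum was mostly Msln, at 89.9 and 103 FPKM at days 5 and 9, against 84.8 FPKM. The part of what these markers measure in the exp results, day 9 included, was not tested. Short genes were lower at days 5 and 9 than at day 0 in exp, and hardly so in ctl. Whether the day 0 or the later exp libraries stood apart in them was not tested. In exp, the shortest length quartile, genes of 30 to 1659 bases, had a median change of -0.31 on the log2(FPKM + 1) scale from day 0 to days 5 and 9, while the longest quartile had 0.05. In ctl the corresponding medians were -0.02 and 0.02. Across genes, length and change had a Spearman rho of 0.35 in exp and 0.10 in ctl, a description over genes that share libraries. Gene lists are therefore given below also after each later library's change was centred on genes of like length, where this moved them, while values of single genes are not centred. Without the exp day 0 library a shared change is that of ctl alone, and this value is given where it differs by more than 1.5 times.

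**Figure D1:**
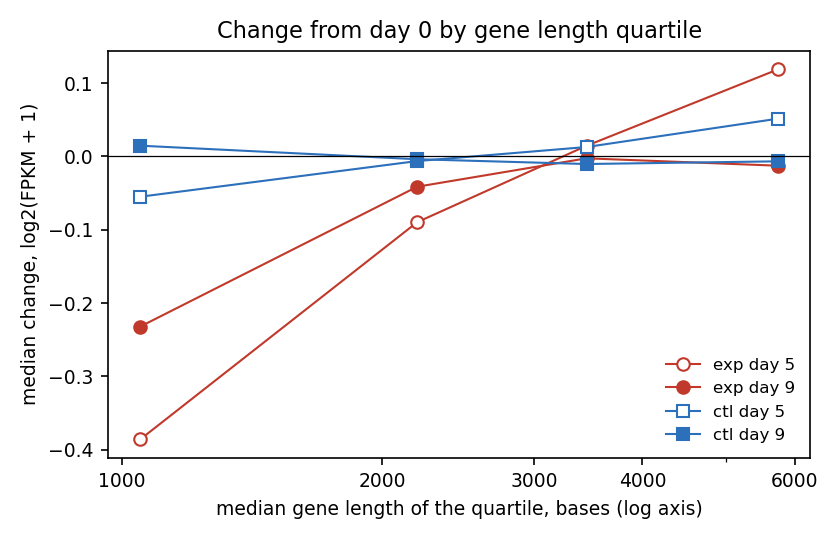
Median change from the line's own day 0 (vertical axis, log2(FPKM + 1)) for genes split into quartiles by length (horizontal axis, bases, log axis), at days 5 and 9 of exp (red circles) and ctl (blue squares). The shortest quartile lies at -0.39 and -0.23 at days 5 and 9 of exp, against -0.05 and 0.01 in ctl.

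Sdhc mRNA was lower at days 5 and 9 than at day 0 by a like amount in both lines. The gene spans chr1:173057296-173080734 (mm9, minus strand). It had 54.4 and 43.8 FPKM at days 5 and 9 of exp, against 87.8 FPKM at day 0 of exp. In ctl it had 58.6 and 47.6 FPKM at days 5 and 9, against 90.5 FPKM at day 0. All 4 later libraries lay below both day 0 libraries. In bulk RNA fewer cells of a type and less RNA per cell cannot be told apart. The later values were 61.9% and 49.8% of day 0 in exp, and 64.8% and 52.6% in ctl. The shared change was -0.80 ± 0.14 log2 (SE), which did not pass in limma over all genes (Benjamini-Hochberg adjusted p = 0.267), and it ranked 25 by p among the genes tested. An exact permutation of the days within each line gave a two-sided p of 0.111, the smallest that 9 arrangements allow. The change was -0.84 in exp and -0.76 in ctl, a difference of -0.07 that did not pass (limma interaction, adjusted p = 0.975). Gene-level values hold reads from all exons, and the floxed part of Sdhc is not given in the labels, so a truncated transcript would still be counted.

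None of the remaining subunit mRNAs changed by as much as Sdhc, and they did not all move the same way. Sdha, the flavoprotein subunit, had 81.3 and 83.3 FPKM at days 5 and 9 of exp, against 57.4 FPKM at day 0, and 73.5 and 71.6 FPKM in ctl, against 69.5 FPKM. Its 4 later libraries were thus above their own day 0, by a shared 0.29 ± 0.14 log2 (limma adjusted p = 0.546), which was 0.06 without the exp day 0 library and 0.51 without the ctl day 0 library. Sdhb, the iron-sulfur subunit, had 24.1 and 33.7 FPKM in exp, against 31.6 FPKM, and 26.7 and 26.6 FPKM in ctl, against 26.6 FPKM, so that the later exp libraries lay on either side of day 0. Sdhd, the other membrane anchor, was lower in all 4 later libraries, as Sdhc was, at -0.28 ± 0.13 log2 (limma adjusted p = 0.546). Its change was -0.30 in exp and -0.25 in ctl. Over the 8 subunits and assembly factors the median shared change was -0.28 (-0.38 in exp and -0.10 in ctl). After centring on length it was -0.11 (-0.08 in exp and -0.09 in ctl).

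**Figure D2:**
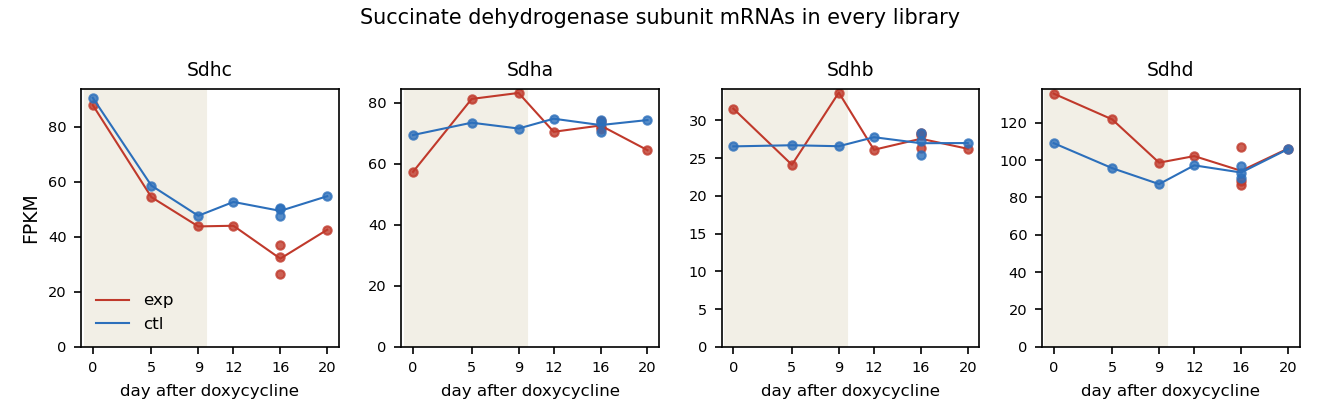
FPKM (vertical axis) of the succinate dehydrogenase subunits by day after doxycycline (horizontal axis) in exp (red) and ctl (blue); points are libraries, lines join the value or, at day 16, the mean of 3 replicates, and shading marks days 0, 5 and 9. Sdhc is lower at days 5 and 9 than at day 0 in both lines, at 54.4 and 43.8 FPKM in exp and 58.6 and 47.6 FPKM in ctl.

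Immediate-early genes were at a lower level at days 5 and 9 than at day 0 in both lines. Counted by size with no test, 23 genes (0.183% of those tested) were lower by at least 1 log2 in both lines and 2 (0.0159%) were higher. The 2 higher ones were microRNA loci, Mir5119 and Mir1258. Of the 23 lower ones 11 were loci of small RNAs, as were 534 of the 12583 genes tested. The other 12 were Fosb, Nr4a1, Fos, Dusp1, Btg2, Sgk1, Dusp6, Ptgs2, Jun, Zfp36, Ier2 and S100a7a, and 9 of these belong to the list of immediate-early and serum response genes. In the limma test of the shared change 1 gene passed, the small nucleolar RNA Snora69 (0.00795% of genes lower), and 0 passed as higher. Snora69, whose RNA is 122 bases long by its FPKM, had 1.36 and 1.34 FPKM at days 5 and 9 of exp, against 6.58 FPKM at day 0, and 2.55 and 2.24 FPKM in ctl, against 8.44 FPKM (-1.58 ± 0.13; limma adjusted p = 0.0277). Its later values lay below both day 0 values, but so short a length makes FPKM coarse. The call was lost under 10 of the alternatives, among them limma voom on the recovered reads (adjusted p = 0.229). At an unadjusted limma p under 0.05 there were 293 higher (2.33%) and 908 lower (7.22%) genes. Limma voom on the recovered reads called 27 genes, all 27 of them lower. Leaving out the ctl day 5 or day 9 library gave 13 or 12 calls, all lower, while leaving out exp day 5 or day 9 gave 0. Without the ctl day 0 library the fit holds the change of exp alone, and without exp day 0 that of ctl alone. Such fits give no count for a shared change.

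Among the AP-1 genes, which encode the FOS and JUN proteins that bind DNA as pairs, Fosb moved furthest. Fosb had 33.6 and 19.4 FPKM at days 5 and 9 of exp, against 418 FPKM at day 0, and 35.0 and 11.0 FPKM in ctl, against 107 FPKM. Its shared change was -3.18 ± 0.57 log2 (limma adjusted p = 0.380 over all genes). The later values of exp and ctl overlapped one another, while both day 0 values lay above all of them. Fos had 181 and 127 FPKM in exp at days 5 and 9, against 1089 FPKM at day 0, and 162 and 83.1 FPKM in ctl, against 346 FPKM (-2.20 ± 0.38; limma adjusted p = 0.302). Jun, the usual partner of FOS, had 50.5 and 44.1 FPKM in exp, against 260 FPKM, and 81.7 and 61.3 FPKM in ctl, against 158 FPKM (-1.79 ± 0.29; limma adjusted p = 0.263). For both genes the 2 day 0 libraries were again the highest of the 6. Junb, which lies outside the naming rule, was at 119 and 148 FPKM in exp, against 537 FPKM, and at 128 and 86.6 FPKM in ctl, against 209 FPKM. Not every AP-1 gene was alike: Fosl2, also outside the rule, had a shared change of only -0.30 ± 0.16 (limma adjusted p = 0.572), and Jund one of -0.62 ± 0.29 (0.543). Without the exp day 0 library the change was -1.15 for Jun, -0.09 for Fosl2 and -0.23 for Jund.

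Other members of the list encode nuclear receptors, zinc-finger factors and further nuclear proteins. Nr4a1, an orphan nuclear receptor induced by many stimuli, had 18.0 and 21.2 FPKM in exp, against 254 FPKM, and 18.8 and 8.33 FPKM in ctl, against 56.8 FPKM (-2.86 ± 0.42; limma adjusted p = 0.263). The lines were close to each other at day 5 and apart at day 0. Egr1, a zinc-finger factor outside the rule, had 122 and 128 FPKM in exp, against 474 FPKM, and 158 and 112 FPKM in ctl, against 251 FPKM. Klf4, another zinc-finger factor outside the rule, had 11.3 and 9.27 FPKM in exp, against 52.2 FPKM, and 16.3 and 14.0 FPKM in ctl, against 30.1 FPKM. Each of these later values was below both day 0 values of its gene. Ier2, a nuclear immediate-early protein, was at 74.1 and 106 FPKM in exp, against 275 FPKM, and at 109 and 65.7 FPKM in ctl, against 180 FPKM (-1.35 ± 0.25; limma adjusted p = 0.306).

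**Figure D3:**
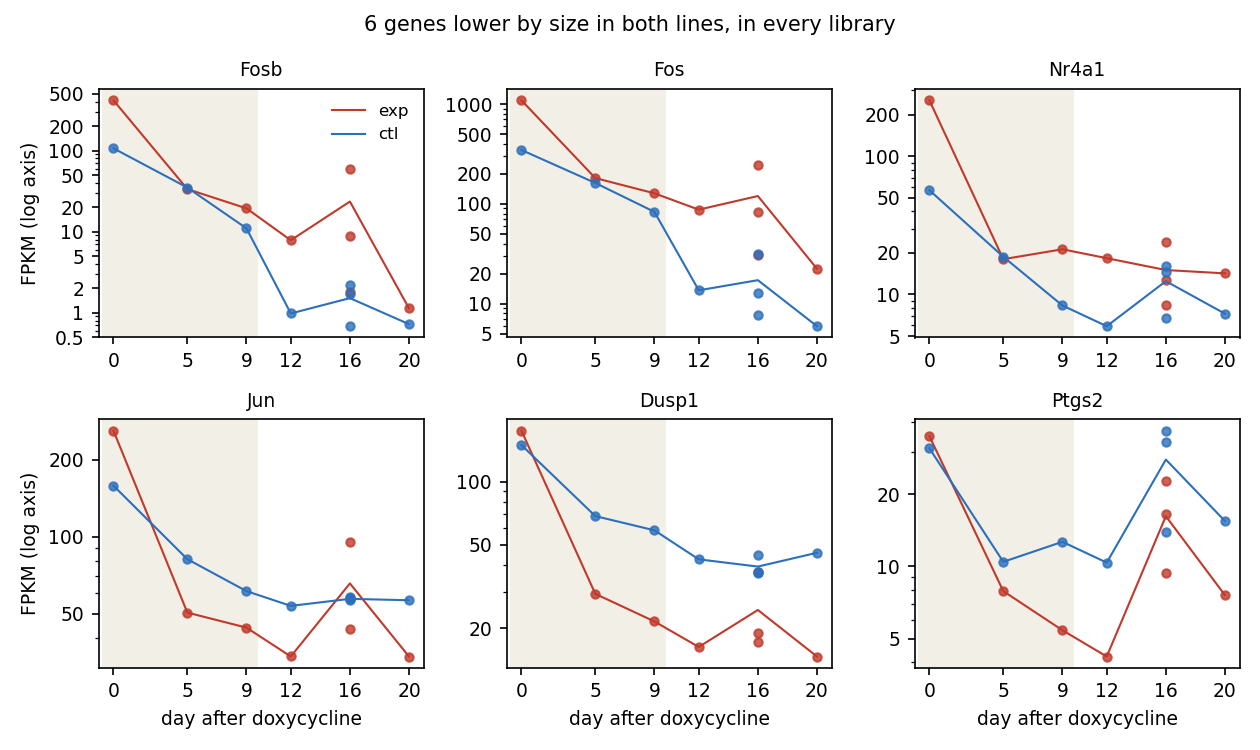
FPKM (vertical axis, log axis) of 6 genes that were lower by at least 1 log2 in both lines, by day after doxycycline (horizontal axis) in exp (red) and ctl (blue); points are libraries, lines join the values or the mean of the 3 replicates at day 16, and shading marks days 0, 5 and 9. In each panel the day 0 value of a line is above its days 5 and 9, as for Fos at 181 and 127 FPKM in exp, against 1089 FPKM at day 0.

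Other genes lower by size in both lines encode phosphatases, RNA regulators, a kinase and a cyclooxygenase. Dusp1, a phosphatase of stress-activated MAP kinases, had 29.2 and 21.6 FPKM in exp, against 175 FPKM, and 68.6 and 58.7 FPKM in ctl, against 150 FPKM (-1.99 ± 0.34; limma adjusted p = 0.302). Dusp6, a phosphatase of ERK, had 10.0 and 6.34 FPKM in exp, against 51.2 FPKM, and 3.87 and 3.22 FPKM in ctl, against 9.68 FPKM (-1.89 ± 0.31; limma adjusted p = 0.297). Dusp1 was higher in ctl than in exp at days 5 and 9, and Dusp6 was higher in exp than in ctl at every one of the 3 days. Zfp36, an RNA-binding protein that speeds the decay of AU-rich mRNAs, had 67.6 and 58.5 FPKM in exp, against 331 FPKM, and 77.9 and 49.6 FPKM in ctl, against 138 FPKM (-1.75 ± 0.31; limma adjusted p = 0.302). Btg2, an antiproliferative cofactor of mRNA deadenylation, had 18.8 and 14.7 FPKM in exp, against 101 FPKM, and 19.2 and 12.9 FPKM in ctl, against 41.5 FPKM (-1.94 ± 0.29; limma adjusted p = 0.263). In both genes the lines nearly met at days 5 and 9. Sgk1, a serum- and glucocorticoid-induced kinase, had 23.3 and 14.2 FPKM in exp, against 121 FPKM, and 26.3 and 30.2 FPKM in ctl, against 66.5 FPKM (-1.94 ± 0.35; limma adjusted p = 0.343). Ptgs2, the inducible cyclooxygenase, differed little between the lines at day 0: it had 7.89 and 5.43 FPKM in exp, against 34.8 FPKM, and 10.4 and 12.7 FPKM in ctl, against 31.0 FPKM (-1.80 ± 0.23; limma adjusted p = 0.263). Without the exp day 0 library the change was -1.22 for Dusp1, -1.24 for Dusp6, -1.13 for Zfp36 and -1.21 for Sgk1.

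The promoters of some genes of the immediate-early list carry a CArG box or a cyclic AMP response element, and 4 are shown as examples. Srf, Dusp5 and Maff also hold such an element and are not shown. The stretches are the 250 bases before the annotated start in RefSeq's GRCm38.p6, given 5′ to 3′ on the gene's strand, with the matched motif in capitals. Zfp36 (chr7:28379229-28379478, minus strand) and Egr2 (chr10:67537316-67537565, plus strand) hold a CArG box, and Dusp1 (chr17:26508473-26508722, minus strand) and Btg2 (chr1:134079156-134079405, minus strand) hold a cyclic AMP response element, TGACGTCA.
Zfp36: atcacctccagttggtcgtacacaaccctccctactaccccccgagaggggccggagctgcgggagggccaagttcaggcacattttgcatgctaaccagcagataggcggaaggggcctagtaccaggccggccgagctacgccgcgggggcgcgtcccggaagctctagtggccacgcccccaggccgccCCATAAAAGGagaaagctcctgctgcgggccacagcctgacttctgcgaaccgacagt
Egr2: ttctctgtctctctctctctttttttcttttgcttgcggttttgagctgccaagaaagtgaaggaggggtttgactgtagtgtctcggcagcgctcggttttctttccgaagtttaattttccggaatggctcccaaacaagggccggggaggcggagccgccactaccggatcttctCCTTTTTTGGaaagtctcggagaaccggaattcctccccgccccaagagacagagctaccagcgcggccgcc
Dusp1: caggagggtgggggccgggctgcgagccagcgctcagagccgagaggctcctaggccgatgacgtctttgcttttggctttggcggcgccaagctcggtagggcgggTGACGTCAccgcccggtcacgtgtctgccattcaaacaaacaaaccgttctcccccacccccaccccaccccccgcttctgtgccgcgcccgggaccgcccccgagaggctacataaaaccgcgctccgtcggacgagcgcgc
Btg2: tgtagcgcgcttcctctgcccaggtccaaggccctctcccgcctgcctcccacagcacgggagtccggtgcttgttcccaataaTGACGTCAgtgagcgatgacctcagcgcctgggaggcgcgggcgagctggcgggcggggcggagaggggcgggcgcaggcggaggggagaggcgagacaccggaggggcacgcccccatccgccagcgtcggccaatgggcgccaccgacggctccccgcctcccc
Of the list's genes 23 had a promoter in the RefSeq table. On either strand, a CArG box was found in 4 of these 23 (17.4%), Zfp36, Egr2, Srf and Dusp5, and in 1.43% of the 9590 promoters of genes tested. TGACGTCA was found in 3 of the 23 (13%), Dusp1, Btg2 and Maff, and in 3.15% of the 9590. These elements are known routes to genes of such a list, so its higher shares can follow from how it was made. No signal was measured. Letters alone show neither binding nor use, and the Egr2 mRNA stood at 1.01 and 1.21 FPKM in exp at days 5 and 9, against 7.53 FPKM at day 0, and at 1.54 and 0.83 FPKM in ctl, against 3.11 FPKM.

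Across the whole list of immediate-early and serum response genes, 31 of 32 members tested were below their own line's day 0 in all 4 later libraries, where 17.9% of all genes tested were. This list, like those below, was chosen with earlier results of these data known. Its shares beside those of all genes are therefore a description and not independent support. The exception was Srf, the serum response factor itself, at 25.6 and 36.0 FPKM in exp, against 34.0 FPKM, and 20.1 and 25.8 FPKM in ctl, against 26.6 FPKM. The median shared change of the 32 was -0.94 log2, against -0.03 over all genes tested. It was -0.89 after centring on length, with 31 of 32 lower in all 4 libraries, where 15.7% of all genes were. By limma 0 of the 32 passed for the shared change over all genes, and 27 had an unadjusted p under 0.05 and were lower, as were 7.22% of all genes tested. Both libraries of ctl alone put 32 of 32 below day 0, where 33.2% of all genes were. Spry4, an inhibitor of growth factor signalling and the remaining member of the 33 listed, averaged under 1 FPKM.

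The size of the step differed between the lines for most of these genes, but no difference passed the test. The median change of the list was -1.25 in exp and -0.73 in ctl, and 28 of 32 members had the larger decrease in exp. The list's genes were mostly higher in exp than in ctl at day 0, in 24 of 32 with a median difference of 0.57 log2. At day 5 they were higher in exp in 8 of 32 (median -0.17) and at day 9 in 15 of 32 (median -0.06). In the interaction of line and day 0 members passed (limma, 0 genes of all tested). Within exp 15 of the 32 members fell (limma adjusted p under 0.05), where 1.13% of all genes tested did, and within ctl 0 of 32 passed, as did 0 of all genes. In exp Jun fell by 2.44 ± 0.22 log2, Dusp1 fell by 2.75 ± 0.22 and Klf4 fell by 2.24 ± 0.19 (limma adjusted p = 0.0119 for each). The exp day 0 library enters every exp value, and its part in the larger step of exp was not tested.

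**Figure D4:**
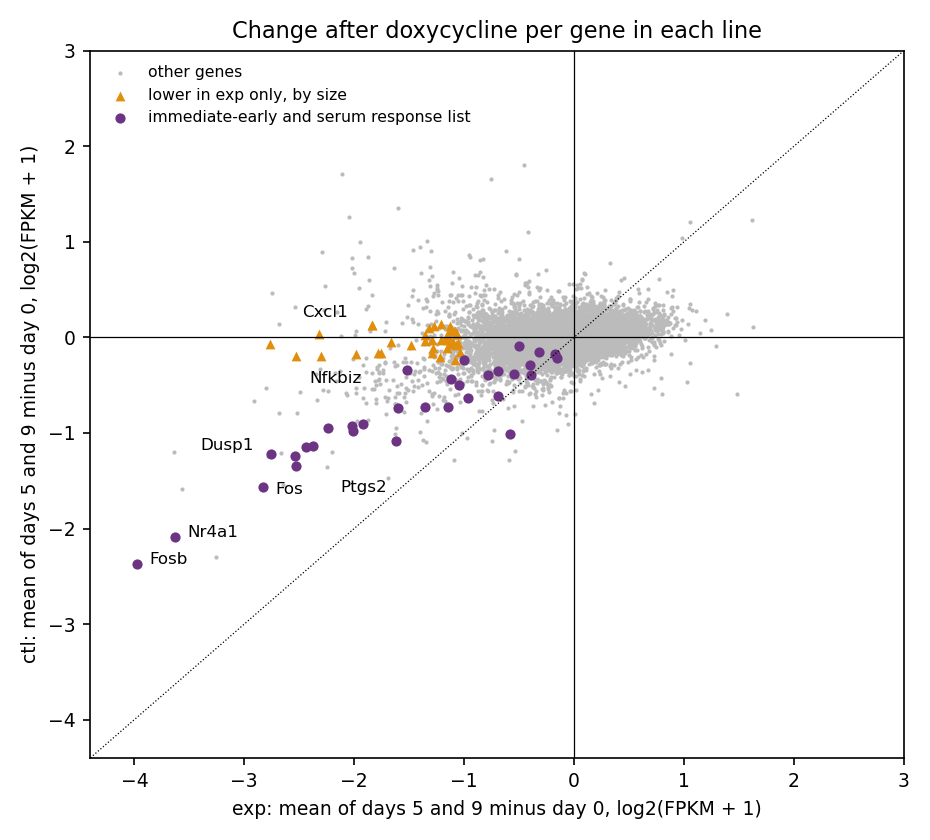
Mean change of days 5 and 9 from day 0 in exp (horizontal axis) and ctl (vertical axis), log2(FPKM + 1), for each of 12583 genes; purple circles are the immediate-early and serum response list, orange triangles the genes lower in exp only by size, and the dotted line marks equal change. The purple circles lie below 0 on both axes and mostly left of the dotted line, with list medians of -1.25 in exp and -0.73 in ctl.

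The lower level was still present in the libraries sampled afterwards, which are compared with the same day 0 libraries and so share them. Against day 0, the list's median in exp was -1.20 at day 12, -0.91, -1.06 and -1.15 in the 3 replicates of day 16, and -0.95 at day 20. In ctl it was -0.73 at day 12, -0.61, -0.46 and -0.48 at day 16, and -0.53 at day 20. Ptgs2, which was lower by size in both lines but is not on this list, took another course. It had 9.39, 22.6 and 16.5 FPKM at day 16 of exp and 14.0, 36.7 and 32.8 FPKM at day 16 of ctl. The ctl values of 2 of these replicates were above the 31.0 FPKM of ctl at day 0.

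A second set of genes, those of ribosome production, was lower in both lines by smaller amounts. Of 30 genes of ribosome biogenesis and MYC targets, 21 were below day 0 in all 4 later libraries (17.9% of all genes tested) and 0 above (13.2%), with a median shared change of -0.36 (-0.30 in exp and -0.37 in ctl). Centring on length left the median at -0.34. Myc, the transcription factor that drives growth, had 11.5 and 7.64 FPKM in exp, against 19.3 FPKM, and 19.01 and 23.3 FPKM in ctl, against 33.2 FPKM (-0.80 ± 0.18; limma adjusted p = 0.380). Each later value lay below its own day 0, and ctl was above exp on each day. Nop56, a core protein of box C/D ribonucleoproteins, had 50.7 and 49.4 FPKM in exp, against 85.2 FPKM, and 46.0 and 56.7 FPKM in ctl, against 67.1 FPKM (-0.57 ± 0.14; limma adjusted p = 0.432). Nop16 and Nle1, both needed for the large ribosomal subunit, had shared changes of -0.46 ± 0.11 and -0.51 ± 0.13. By limma 0 of the 30 passed, and 15 had an unadjusted p under 0.05, all lower, as were 7.22% of all genes tested.

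Cytosolic ribosomal protein genes were also lower, mainly in exp. Of 36, 26 were below day 0 in all 4 later libraries, where 17.9% of all genes tested were, with medians of -0.67 in exp and -0.20 in ctl. These are short genes, with a median length of 759 bases, and after centring on length 17 of 36 were lower in all 4 libraries (15.7% of all genes) and the medians were -0.37 in exp and -0.17 in ctl. Rpl27, of the large subunit, had 15.9 and 13.1 FPKM in exp, against 34.4 FPKM, and 16.1 and 19.9 FPKM in ctl, against 24.6 FPKM (-0.82 ± 0.19; limma adjusted p = 0.381). Its change was -0.44 without the exp day 0 library. Reads of ribosomal protein genes can be shared with their many processed pseudogenes, so single members are uncertain.

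Nuclear-encoded respiratory chain genes were lower in exp but not once length was taken into account. Complex I had medians of -0.35 in exp and -0.03 in ctl over 36 genes, and 0.02 and 0.01 after centring. Complexes III, IV and V had medians of -0.47 in exp and -0.06 in ctl over 35 genes, and -0.09 and -0.05 after centring. Mitochondrial ribosomal proteins, 38 genes, had medians of -0.31 in exp and -0.11 in ctl, and -0.06 and -0.08 after centring. Ndufb4, an accessory subunit of complex I, had 15.0 and 14.4 FPKM in exp, against 37.5 FPKM, and 13.9 and 15.3 FPKM in ctl, against 14.9 FPKM. In exp it fell by 1.30 ± 0.15 log2 (limma adjusted p = 0.0224), and its exp values at days 5 and 9 were close to all 3 ctl values. Cycs, which encodes cytochrome c, was lower in both lines, with 6.82 and 5.63 FPKM in exp, against 9.83 FPKM, and 5.28 and 5.01 FPKM in ctl, against 7.49 FPKM (-0.53 ± 0.12; limma adjusted p = 0.383).

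Genes that were higher at days 5 and 9 made smaller steps. By number of genes, in lists of unequal size, the lists with the most of them were collagens, matrix glycoproteins and interferon-stimulated genes. Of 19 collagen genes 12 were above day 0 in all 4 later libraries, where 13.2% of all genes tested were, with a median of 0.61 in exp and 0.13 in ctl. Col1a2, a chain of type I collagen, had 629 and 653 FPKM in exp, against 373 FPKM, and 103 and 91.7 FPKM in ctl, against 85.6 FPKM (0.48 ± 0.16; limma adjusted p = 0.488). Its level was higher in exp than in ctl throughout. Col3a1, of type III collagen, had 263 and 259 FPKM in exp, against 147 FPKM, and 118 and 93.4 FPKM in ctl, against 88.3 FPKM (0.54 ± 0.17; limma adjusted p = 0.488). Without the exp day 0 library the change was 0.18 for Col1a2 and 0.25 for Col3a1, and without the ctl day 0 library it was 0.78 and 0.82. Of 40 matrix glycoprotein and crosslinking genes 16 were higher in all 4 libraries (13.2% of all genes tested), with medians of 0.46 in exp and 0.06 in ctl. Fbn2, the fetal form of fibrillin, was higher in both lines, with 10.7 and 11.8 FPKM in exp, against 7.16 FPKM, and 52.5 and 42.9 FPKM in ctl, against 33.0 FPKM (0.55 ± 0.12; limma adjusted p = 0.380). By limma 0 genes passed as higher in either list. Collagen genes are long, and after centring on length 10 of the 19 were higher in all 4 libraries, where 15.9% of all genes were.

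Interferon-stimulated genes, the antiviral and antigen-presentation genes switched on by interferon, were higher at day 5 in both lines and at day 9 mainly in exp. The median over 29 genes was 0.33 at day 5 and 0.65 at day 9 in exp, and 0.35 at day 5 and 0.04 at day 9 in ctl. All 4 later libraries were above day 0 for 14 genes (13.2% of all genes tested) and below it for 0 (17.9%). Beside the day 9 values of exp stands the lower sum of mesothelial and epithelial markers in that library, 170 FPKM. Rtp4, an interferon-induced inhibitor of flaviviruses, had 7.19 and 9.74 FPKM in exp, against 4.05 FPKM, and 8.62 and 6.32 FPKM in ctl, against 5.199 FPKM (0.66 ± 0.18; limma adjusted p = 0.482, and 0.44 without the exp day 0 library). Isg15, a ubiquitin-like protein and outside the rule, had 28.8 and 51.8 FPKM in exp, against 21.1 FPKM, and 26.1 and 19.4 FPKM in ctl, against 19.7 FPKM. Its day 9 value in ctl was thus at the day 0 level, and its day 9 value in exp was the highest of the 6. By limma 0 of the 29 passed in any comparison, and 8 had an unadjusted p under 0.05 for the shared change, all higher, as were 2.33% of all genes tested. The test of day 9 against day 5 in both lines called 0 genes of all tested, with 326 higher (2.59%) and 191 lower (1.52%) at an unadjusted limma p under 0.05 and 0 calls by limma voom. In later libraries the list's median against day 0 was 1.09 to 1.23 in exp and between -0.49 and 0.04 at days 12 to 20 in ctl.

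**Figure D5:**
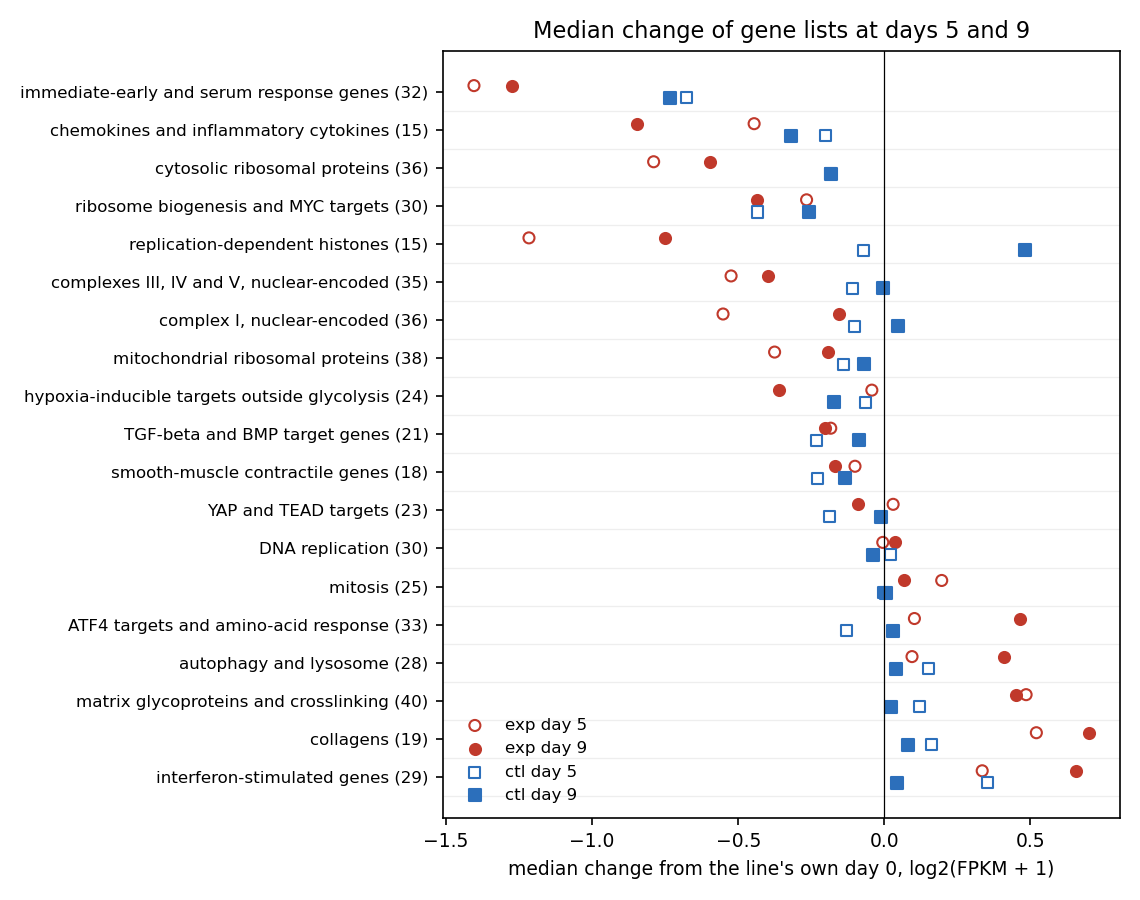
Median change from the line's own day 0 (horizontal axis, log2(FPKM + 1)) of 19 gene lists, with the number of genes tested in parentheses, at day 5 (open) and day 9 (filled) of exp (red circles) and ctl (blue squares). Immediate-early genes lie furthest left in both lines, with list medians over the 2 days of -1.25 in exp and -0.73 in ctl, and collagens, matrix glycoproteins and interferon-stimulated genes lie to the right.

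Targets of TGF-beta, BMP and YAP signalling, which govern the contractile and matrix programme of fibroblasts, gave mixed counts with a few clear members. Of 21 TGF-beta and BMP target genes 11 were lower and 3 higher in all 4 later libraries, where 17.9% and 13.2% of all genes tested were. Id1, an inhibitor of basic helix-loop-helix factors and a direct BMP target, had 167 and 210 FPKM in exp, against 312 FPKM, and 31.7 and 36.4 FPKM in ctl, against 67.6 FPKM (-0.85 ± 0.15; limma adjusted p = 0.263). Id2, of the same family, had 92.2 and 86.9 FPKM in exp, against 162 FPKM, and 38.0 and 38.4 FPKM in ctl, against 56.9 FPKM (-0.70 ± 0.12; limma adjusted p = 0.263). The levels of both were higher in exp than in ctl, and the lines took steps of like size. Ccn2, a secreted matrix-associated protein induced by TGF-beta and by YAP, had 59.4 and 46.4 FPKM in exp, against 104 FPKM, and 28.4 and 37.7 FPKM in ctl, against 69.1 FPKM (-1.02 ± 0.16; limma adjusted p = 0.263). Its neighbour in family, Ccn1, had 250.2 and 249.8 FPKM in exp, against 734 FPKM, and 336 and 299 FPKM in ctl, against 544 FPKM (-1.16 ± 0.19; limma adjusted p = 0.263), and in exp it fell by 1.55 ± 0.17 log2 (limma adjusted p = 0.0187). Of 23 YAP and TEAD targets 9 were lower and 7 higher in all 4 libraries (17.9% and 13.2% of all genes), with a median of -0.06. Of 18 smooth-muscle contractile genes 7 were lower (17.9%) and 0 higher (13.2%), among them Tagln, an actin-binding protein, at 233 and 160 FPKM in exp, against 385 FPKM, and 119 and 160 FPKM in ctl, against 212 FPKM.

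Of 15 chemokine and inflammatory cytokine genes 8 were lower in all 4 later libraries (17.9% of all genes tested) and 0 higher (13.2%). The medians were -0.70 in exp and -0.24 in ctl, and -0.49 and -0.24 after centring on length. Ccl7, a monocyte chemokine, had 4.42 and 3.12 FPKM in exp, against 9.80 FPKM, and 3.38 and 4.31 FPKM in ctl, against 6.60 FPKM (-0.92 ± 0.18; limma adjusted p = 0.331). Ccl2, another, had 7.81 and 6.89 FPKM in exp, against 19.2 FPKM, and 10.9 and 15.0 FPKM in ctl, against 15.8 FPKM (-0.78 ± 0.23; limma adjusted p = 0.488). Its change was -0.28 without the exp day 0 library and -1.28 without the ctl day 0 library. The day 9 value of Ccl2 in ctl was close to its day 0. By limma 0 of the 15 passed for the shared change, and 9 had an unadjusted p under 0.05, all lower, as were 7.22% of all genes tested.

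Tested within each line, genes were called in exp and none in ctl, which does not show that the lines differ. Within exp 142 genes (1.13%) fell and 0 rose by limma, at an unadjusted p under 0.05 there were 1785 lower (14.2%) and 541 higher (4.3%) genes, and limma voom called 172 lower and 25 higher. Of the 142, 69 were small RNA loci, as were 534 of the 12583 genes tested. Among the 69, 44 were small nucleolar RNAs and 24 microRNAs. Another 60 of the 142 were protein-coding and 12 were long noncoding RNAs. In ctl 115 of the 142 were also below day 0 in both later libraries, where 33.2% of all genes were. The shortest length quartile held 109 of the 142. Within ctl 0 genes passed by limma and by limma voom, with 151 lower (1.2%) and 45 higher (0.358%) at an unadjusted p under 0.05. The exp count was 37 with no filter on low values and 74 without small RNA genes. Without 1 later library the spread comes from day 5 and day 9 of the complete line alone, so no count is given.

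By size, with no test, 36 genes (0.286%) were at least 1 log2 lower in both later exp libraries while both later ctl libraries stayed within 0.25 log2 of day 0. No gene met the reverse pattern in either direction, and 0 were higher in exp only, against 2 with a pseudocount of 0.1 and 1 with median-of-ratios rescaling. Of the 36, 10 were small RNA loci, as were 534 of the 12583 genes tested. Cxcl1, a neutrophil chemokine, had 3.90 and 2.37 FPKM in exp, against 19.3 FPKM, while ctl had 2.08 and 2.23 FPKM, against 2.07 FPKM. In exp it fell by 2.32 ± 0.25 log2 (limma adjusted p = 0.0186). The exp day 0 library was the single high value of the 6, and the later exp values were near those of ctl. Nfkbiz, an inducible cofactor of NF-kappa-B, had 3.80 and 3.39 FPKM in exp, against 17.2 FPKM, and 3.70 and 4.17 FPKM in ctl, against 4.56 FPKM, and in exp it fell by 1.99 log2 (limma adjusted p = 0.0119). Nr4a2, an orphan nuclear receptor related to Nr4a1, had 6.55 and 5.33 FPKM in exp, against 22.8 FPKM, and 5.31 and 4.90 FPKM in ctl, against 5.84 FPKM, and in exp it fell by 1.78 log2 (limma adjusted p = 0.0177). H2ac13, a replication-dependent histone gene whose reads can be shared with near-identical copies, had 1.35 and 2.73 FPKM in exp, against 6.61 FPKM, and 2.78 and 3.06 FPKM in ctl, against 2.86 FPKM. In the limma interaction, which tests the difference between the lines itself, 0 genes passed of all tested, with 835 lower (6.64%) and 106 higher (0.842%) in exp at an unadjusted p under 0.05 and 0 calls by limma voom. Without 1 later library the interaction takes its spread from day 5 and day 9 of the complete line alone, so no count is given. The exp-minus-ctl changes were -2.36 for Cxcl1 (adjusted p = 0.246), -1.81 for Nfkbiz (0.214) and -1.62 for Nr4a2 (0.264).

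Among the other exp-only genes by size were 5 subunits of respiratory complexes, with Ndufa4, outside the rule, at 82.9 and 87.0 FPKM in exp, against 191 FPKM, and 69.1 and 79.8 FPKM in ctl, against 74.6 FPKM. Ccnl1, a cyclin of the splicing machinery outside the rule, had 27.7 and 26.8 FPKM in exp, against 58.0 FPKM, and 28.2 and 33.5 FPKM in ctl, against 30.1 FPKM. Malat1, a nuclear long noncoding RNA that is not among the 36 and lies outside the rule, had 64.6 and 59.6 FPKM in exp, against 250 FPKM, and 81.5 and 115 FPKM in ctl, against 95.5 FPKM. For each of these 3 genes the exp day 0 library was the highest of the 6. Replication-dependent histones showed the same layout as a list: 15 of 15 were below day 0 in both later exp libraries, where 41.7% of all genes were, with a median of -0.98 in exp and 0.09 in ctl, and -0.37 and 0.12 after centring on length. Gas5, a host gene of small nucleolar RNAs that is not among the 36 either, had 21.5 and 15.9 FPKM in exp, against 76.1 FPKM, and 25.7 and 33.0 FPKM in ctl, against 44.3 FPKM.

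By their shared change the cell-cycle lists stayed near the level of all genes in this first step, and the stress lists gave small medians. In exp alone the ATF4 list was higher at day 9. DNA replication genes had a median shared change of 0.01 over 30 genes (-0.03 in exp and -0.01 in ctl). In all 4 later libraries 7 were lower (17.9% of all genes tested) and 4 higher (13.2%). Mitosis genes had a median shared change of 0.05 over 25 genes, with 2 lower and 7 higher. Their median was 0.15 in exp and -0.02 in ctl. Both later libraries were above day 0 for 15 of 25 in exp (29.1% of all genes tested) and 10 of 25 in ctl (33.9%). Mcm6, a helicase subunit, had 74.0 and 82.1 FPKM in exp, against 54.4 FPKM, and 75.8 and 69.5 FPKM in ctl, against 67.7 FPKM. ATF4 targets, the amino-acid response genes, had a median shared change of 0.11, with 0.32 in exp and -0.08 in ctl. By day the medians were 0.10 and 0.46 at days 5 and 9 of exp, and -0.13 and 0.03 in ctl. In exp 21 of 33 were above day 0 in both later libraries (29.1% of all genes tested), and in ctl 7 of 33 (33.9%). Trib3, an inhibitor of AKT and an ATF4 target, had 25.9 and 42.8 FPKM in exp, against 19.5 FPKM, and 7.79 and 9.67 FPKM in ctl, against 7.03 FPKM (0.51 ± 0.22; limma adjusted p = 0.522, and 0.27 without the exp day 0 library or 0.32 without exp day 9). Of 24 hypoxia-inducible targets outside glycolysis 10 were lower (17.9%) and 1 higher (13.2%), with a median of -0.17 (-0.24 in exp and -0.11 in ctl). Fam162a, a mitochondrial HIF target, had 53.1 and 39.4 FPKM in exp, against 79.9 FPKM, and 35.4 and 36.3 FPKM in ctl, against 44.4 FPKM (-0.55 ± 0.17; limma adjusted p = 0.488, and -0.30 without the exp day 0 library). Of 15 heat shock genes 7 were lower (17.9%) and 0 higher (13.2%), with a median of -0.19, and -0.09 after centring on length. Of 28 autophagy and lysosome genes 10 were higher (13.2%) and 1 lower (17.9%), with a median of 0.20 (0.26 in exp and 0.09 in ctl). For sterol synthesis the median over 24 genes was -0.04 (-0.06 in exp and -0.07 in ctl).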

How the data were processed

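The authors deposited FPKM for 24485 gene IDs in each library, and 24416 IDs matched a symbol. The submitters' processing notes name Bowtie2 2.2.3 and mm9. How reads were counted, on which annotation and with what strand setting is not given in the sources used here. Libraries were grouped by line and day from their titles. Members and gene lists were chosen with earlier results of these data known.

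Tests used limma 3.58.1 with statmod 1.5.0 (R 4.3.3) on log2(FPKM + 1), which understates changes of low genes, for the 12583 genes that averaged 1 FPKM or more in the 6 libraries. The shared change was fitted with line as covariate (3 residual degrees of freedom). The change within each line and its difference came from an interaction fit, and day 9 against day 5 from a fit with day as factor (2 residual degrees of freedom each). Trend and robust empirical Bayes were used. Tests were two-sided, and a call needed a Benjamini-Hochberg adjusted p under 0.05. The fits were tested on simulated data. Size counts needed at least 1 log2, and at most 0.25 log2 in the still line. Gene length is that implied by FPKM and reads: whole reads were recovered within 0.02 read for 18966 genes from the FPKM steps (100.0% of their nonzero values, by construction of the rule), with totals of 18121520 to 32035198. Depth limits low genes: a value of 0 allows up to 3 reads by counting error alone.

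Named genes were, by rule, Sdhc and the other subunits; up to 12 per direction past the threshold or, where too few passed, those of the size counts with at least 5 FPKM; and per list up to 4 members with the smallest p. Because 1 gene passed for the shared change, the genes lower in both lines by size are named in its place, a choice made after their values were seen. Other genes are marked as outside the rule. Alternatives were other pseudocounts and filters, rescaling, quantile normalization, limma voom on recovered reads, each library or day left out, no line term and all 16 libraries. Chosen after seeing the data were the fits without 534 small RNA genes, centring on 20 length bins and ctl alone. Promoters are RefSeq's, on GRCm38.p6, and were used for motifs only.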

Additional observations from a re-analysis of the deposited data

Results flagged for a closer look

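Cxcl1, the neutrophil chemokine, is listed because both later exp libraries were below day 0 while both later ctl libraries were above it, though by little. The exp-minus-ctl difference in change was -2.36 log2, and it did not pass in the limma interaction (Benjamini-Hochberg adjusted p = 0.246). The ctl change was 0.04 log2 on average, with no ctl call, and the values in ctl stayed near day 0.

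Eno2, an enolase of glycolysis, is listed for the same layout. It had 7.95 and 10.6 FPKM at days 5 and 9 of exp, against 14.1 FPKM at day 0, and 18.0 and 18.1 FPKM in ctl, against 17.7 FPKM. The difference in change was -0.60 log2 (limma interaction, adjusted p = 0.712), and the ctl change was 0.03 log2, again near day 0.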

How the results depend on the processing

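With 1 library per line and day and 2 or 3 residual degrees of freedom, counts of calls moved with the settings far more than the changes did. The shared change had 0 calls with a pseudocount of 0.1, with a mean FPKM of at least 5, without small RNA genes, with day 5 only, day 9 only, no line covariate or all 16 libraries, and 27 by limma voom on recovered reads. Leaving out 1 later library gave 0 to 13 calls for the shared change. Without ctl day 0 the fit gave 142 calls, but it holds the change of exp alone. Without exp day 0 it gave 0 and holds that of ctl alone. Neither is a count for a shared change. Leaving out 1 later library gave 39 to 223 calls for the line difference, 451 to 2216 within exp and 1 to 17 within ctl. Their spread comes from day 5 and day 9 of the complete line alone, so nothing is concluded from them. Leaving out a day 0 library gave 43 to 50 calls for day 9 against day 5. Within exp the calls were 220 with a pseudocount of 5, 37 with no filter, 81 with quantile normalization and 74 without small RNA genes, and within ctl they were 15 with no filter. With a pseudocount of 5 the size counts were 13 genes in both lines and 19 in 1 line only, against 25 and 36. With a pseudocount of 0.1 they were larger: 33 lower and 3 higher in both lines, and 52 lower and 2 higher in exp only. Quantile normalization moved the unadjusted exp split to 1171 higher and 1243 lower, against 541 and 1785. The causes were not tested.

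Among the genes named by the rule, the shared change turned positive without exp day 0 for Eno2 (leave-one-out range -0.56 to 0.031), Cxcl1 (-2.32 to 0.036), H3c3 (-1.08 to 0.091), H2ac13 (-1.36 to 0.022), H2bc4 (-0.77 to 0.023) and Sdhb. For Sdhb it was also positive without exp day 5 (range -0.16 to 0.042) and with day 9 only (0.046). The Snora69 call was lost under 10 alternatives. No paired analysis was possible because the groups compared share only replicate number 1, with 1 library per line and day, while the line itself is already a covariate of the shared fit.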

Other observations

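The precursors of the microRNAs miR-23a, miR-27a and miR-24-2, which are made from 1 primary transcript, were lower together. In these mRNA libraries the reads over each locus come from longer RNA and not from the mature microRNA. Mir23a had 3.68 and 3.27 FPKM at days 5 and 9 of exp, against 54.9 FPKM at day 0, and 6.91 and 6.78 FPKM in ctl, against 17.1 FPKM. Mir27a had 4.44 and 2.82 FPKM in exp, against 42.7 FPKM, and 4.37 and 1.35 FPKM in ctl, against 16.5 FPKM. Mir24-2 had 31.5 and 19.8 FPKM in exp, against 162 FPKM, and 10.7 and 15.0 FPKM in ctl, against 38.8 FPKM. All later values were below both day 0 values of their locus. Within exp Mir23a fell by 3.64 ± 0.16 log2, Mir27a fell by 3.26 ± 0.47 and Mir24-2 fell by 2.65 ± 0.31 (limma, Benjamini-Hochberg adjusted p = 0.00261, 0.0380 and 0.0219). They were named after their values were seen, and their lengths of 75 to 107 bases make FPKM coarse.

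Metabolic lists outside the respiratory chain made small steps. Glycolysis genes had a median change of 0.01 in exp and -0.14 in ctl over 23 genes, with 18 of 23 below day 0 in both later ctl libraries (33.2% of all genes tested). Citric acid cycle genes had 0.12 and -0.05 over 26 genes, and NRF2 targets and antioxidant enzymes 0.06 and -0.04 over 27 genes. Fatty acid synthesis genes were above day 0 in all 4 later libraries in 7 of 15 cases (13.2% of all genes tested) and below it in 2 (17.9%). Their median shared change was 0.11, with 0.14 in exp and 0.06 in ctl. Gpx1, a glutathione peroxidase with a short mRNA, had 291 and 341 FPKM in exp, against 609 FPKM, and 276 and 307 FPKM in ctl, against 326 FPKM. Idh2, the mitochondrial NADP-dependent isocitrate dehydrogenase, had 103 and 123 FPKM in exp, against 86.1 FPKM, and 103 and 99.9 FPKM in ctl, against 85.1 FPKM (0.31 ± 0.13; limma adjusted p = 0.511).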
